A study of Ovis aries with 6 samples.

Results

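The 10 genes described here mark the endothelial cells that line blood vessels, or encode the growth factors that those cells respond to. They are PECAM1, CDH5, VWF, KDR, FLT1, TEK, TIE1, VEGFA, VEGFB and ANGPT1, and they were chosen by name from the 23144 rows of a gene count table. Of these, 7 were found under their own symbol and 3 under another name. The row TIE2 is annotated in the table as TEK. The row LOC443265 is annotated there as TIE1 and carries the RefSeq gene ID of TIE1. The row LOC443087 has no annotation in the table and was taken as KDR from its RefSeq gene ID alone. Of the 732 rows with such an ID and a name in both sources, 578 had the same name.

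The libraries came from the longissimus dorsi muscle of 3 Qianhua Mutton Merino (QHMM) sheep and of 3 sheep of the Small Tail Han breed (STH). All were females aged 1 year and kept under the same conditions, and no treatment is described. The study weighed its animals of both breeds after fasting, before slaughter. The QHMM is a recently bred mutton and wool variety and the STH a traditional local variety, and each difference is given as STH vs. QHMM. Poly(A) RNA of each animal was sequenced on an Ion Proton instrument, and 10982191 to 14334544 reads per library were counted on genes. Breed is the only factor of the design, and for a single value the smallest exact permutation p with 3 animals a breed is 0.1.

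Vascular endothelial growth factor A (VEGFA) is released by muscle fibres and other cells, and it acts on the receptor tyrosine kinases FLT1 (VEGF receptor 1) and KDR (VEGF receptor 2) of endothelial cells. KDR carries most of the growth signal, whereas FLT1 binds the ligand tightly and signals weakly. A second receptor system consists of TEK, also called TIE2, its ligand ANGPT1, which keeps vessels stable, the context-dependent ligand ANGPT2, and the coreceptor TIE1. In skeletal muscle, capillary supply is known to be linked to fibre type and to oxidative capacity.

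All 10 genes were expressed in the muscle of both breeds, at levels that spanned a wide range. RPKM values, which divide a count by gene length and by the library total, allow levels of different genes to be set side by side. VEGFA had the highest mean over the 6 libraries, with 196 RPKM, followed by PECAM1 with 59.4, VEGFB with 56.9, CDH5 with 39.1 and VWF with 36.2. The receptors lay lower, at 13.6 RPKM for KDR, 12.9 for FLT1, 8.91 for TIE1 and 8.26 for TEK. ANGPT1 was lowest with 0.598 RPKM and 18 to 50 reads per library.

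The order of neighbouring genes was not firm everywhere. PECAM1 exceeded VEGFB in 3 of the 6 libraries, CDH5 exceeded VWF in 4, KDR exceeded FLT1 in 4 and TIE1 exceeded TEK in 3. These neighbours were therefore not separated beyond the spread between libraries. VEGFA exceeded PECAM1 in all 6 libraries, and TEK exceeded ANGPT1 in all 6, by at least 9.24-fold. The gene length behind the RPKM of VEGFA was only 464 bases, which is shorter than in 95.4% of genes with reads, where the median was 1745 bases. Its RPKM therefore depends on a short gene model more than the RPKM of the other genes, whose lengths were 964 to 8140 bases.

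**Figure D1:**
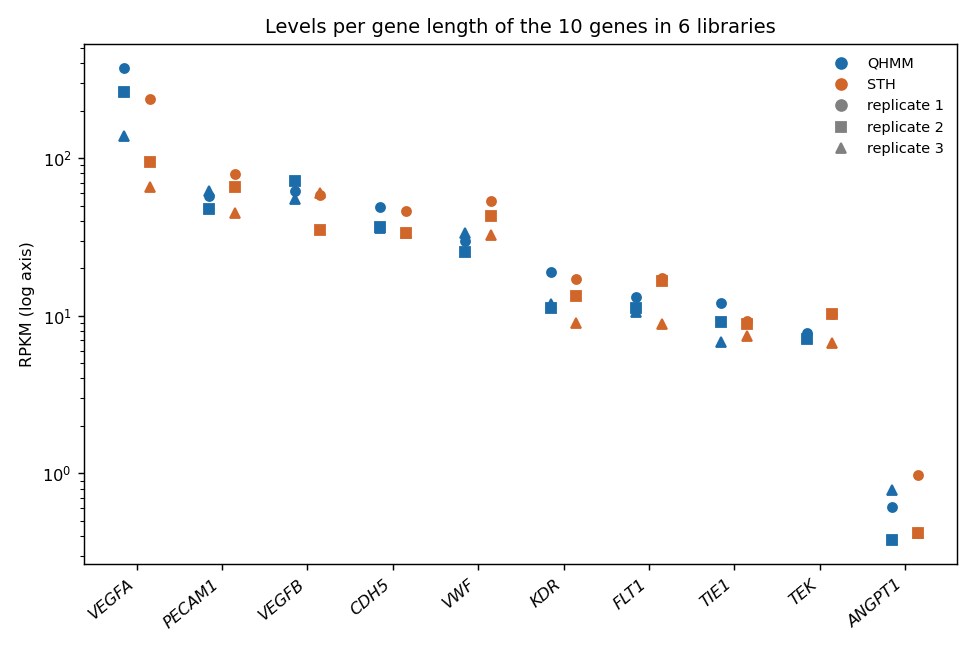
RPKM of the 10 genes (log axis) in the 3 QHMM and 3 STH libraries, with 1 point per library, ordered by the mean over all libraries. VEGFA spans 65.4 to 376 RPKM, whereas PECAM1 spans 44.7 to 78.9, and ANGPT1 lies below 1 RPKM in every library.

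In the comparison of the breeds, 0 of the 10 genes passed the test, in which edgeR required an FDR below 0.05 over all tested genes and a change of more than 1.5-fold. Of all 12506 tested genes, 432 passed, or 3.45%. All 10 genes had enough reads to be tested. At an unadjusted p below 0.05, 1 of the 10 genes passed, VEGFA, where 19.2% of all genes did. Unlike edgeR, DESeq2 called VEGFA, and no other of the 10, in a fit where it called 7.8% of all tested genes. With limma-trend on RPKM, 0 of the 9 that it tested were called. The log2 fold changes of the 10 genes had a median of -0.16, beside 0.02 over all tested genes, with 4 genes above 0 and 6 below. The 95% interval lay within a 2-fold change in either direction, around a change of less than 1.5-fold, for 8 of the 10 genes, where 46.0% of all genes did so, and the exceptions were VEGFA and VEGFB. In RNA from whole muscle, a difference in endothelial cell number and one in RNA per endothelial cell could not be told apart.

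**Figure D2:**
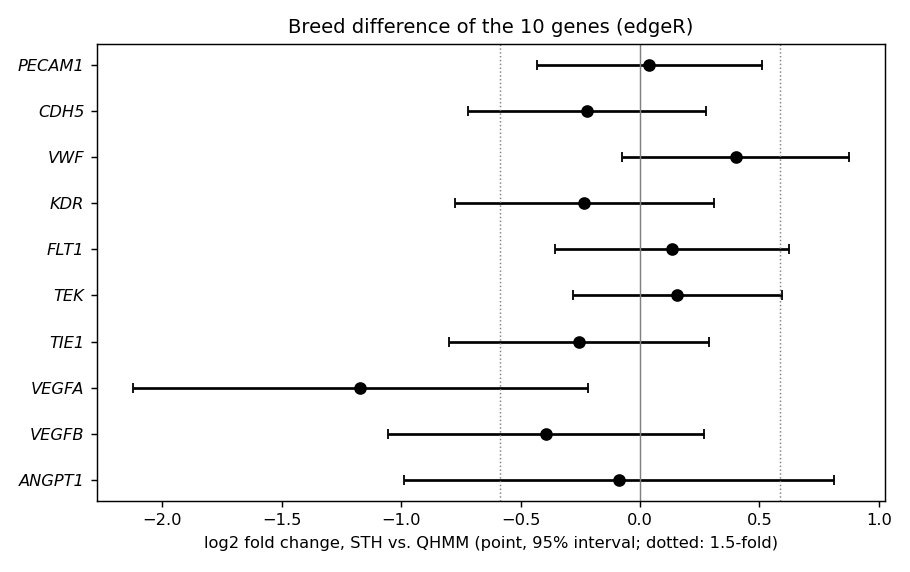
Log2 fold change (STH vs. QHMM) of the 10 genes with its 95% interval from edgeR, where dotted lines mark a 1.5-fold change. VEGFA lies lowest at -1.17 with an interval that stays below 0, and the intervals of the other 9 genes cross 0.

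The junction proteins PECAM1 and CDH5 hold neighbouring endothelial cells together, and they differed little between the breeds. Levels within a gene are given as CPM, which are counts scaled to a common library size after TMM normalization. PECAM1 had 196, 191 and 208 CPM in QHMM replicates 1, 2 and 3 and 227, 205 and 180 CPM in STH replicates 1, 2 and 3. The breeds overlapped, and the means were 198 ± 8.56 CPM in QHMM (mean ± SD, n = 3) and 204 ± 23.4 in STH (n = 3). The difference was 0.04 on the log2 scale, with an SE of 0.21, a 95% interval from -0.43 to 0.51 and FDR = 0.945. CDH5, or VE-cadherin, had 151, 133 and 109 CPM in QHMM and 120, 94.6 and 122 CPM in STH. QHMM replicate 3 lay below STH replicates 1 and 3, and the log2 fold change was -0.22 (SE 0.23, FDR = 0.641).

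VWF encodes von Willebrand factor, a clotting protein that endothelial cells store and secrete, and it was the only one of the 10 genes whose breeds did not overlap. It had 242, 243 and 264 CPM in QHMM and 362, 318 and 309 CPM in STH, so that the lowest STH library lay above the highest QHMM library. Such separation was seen in 24.7% of all tested genes. It was absent in RPKM, which are scaled by library totals, where STH replicate 3 with 32.4 lay below QHMM replicate 3 with 33.4. The mean was 249.8 ± 12.7 CPM in QHMM (n = 3) and 329.6 ± 28.3 in STH (n = 3). This is a difference of 0.40 on the log2 scale (SE 0.22, FDR = 0.346), whose 95% interval ran from -0.08 to 0.88. VWF and PECAM1 also occur in platelets, and PECAM1 in leukocytes. Of 6 platelet markers, PPBP, GP9 and GP6 had no read in any library, and the summed level of all 6 was 3.17 to 4.63 CPM in QHMM and 2.86 to 4.66 CPM in STH. The 11 leukocyte markers found in the table summed to 99.6 to 127 CPM in QHMM and 72.3 to 125 CPM in STH. Of the 10 tested, edgeR called 0 (1 at an unadjusted p below 0.05, 1 by DESeq2 and 0 by limma-trend). Over all tested genes, 19.2% had such a p and DESeq2 called 7.8%. Among the leukocyte markers, the T cell genes CD2 and CD3D had log2 fold changes of -1.84 (FDR = 0.0520) and -0.81 (FDR = 0.408).

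**Figure D3:**
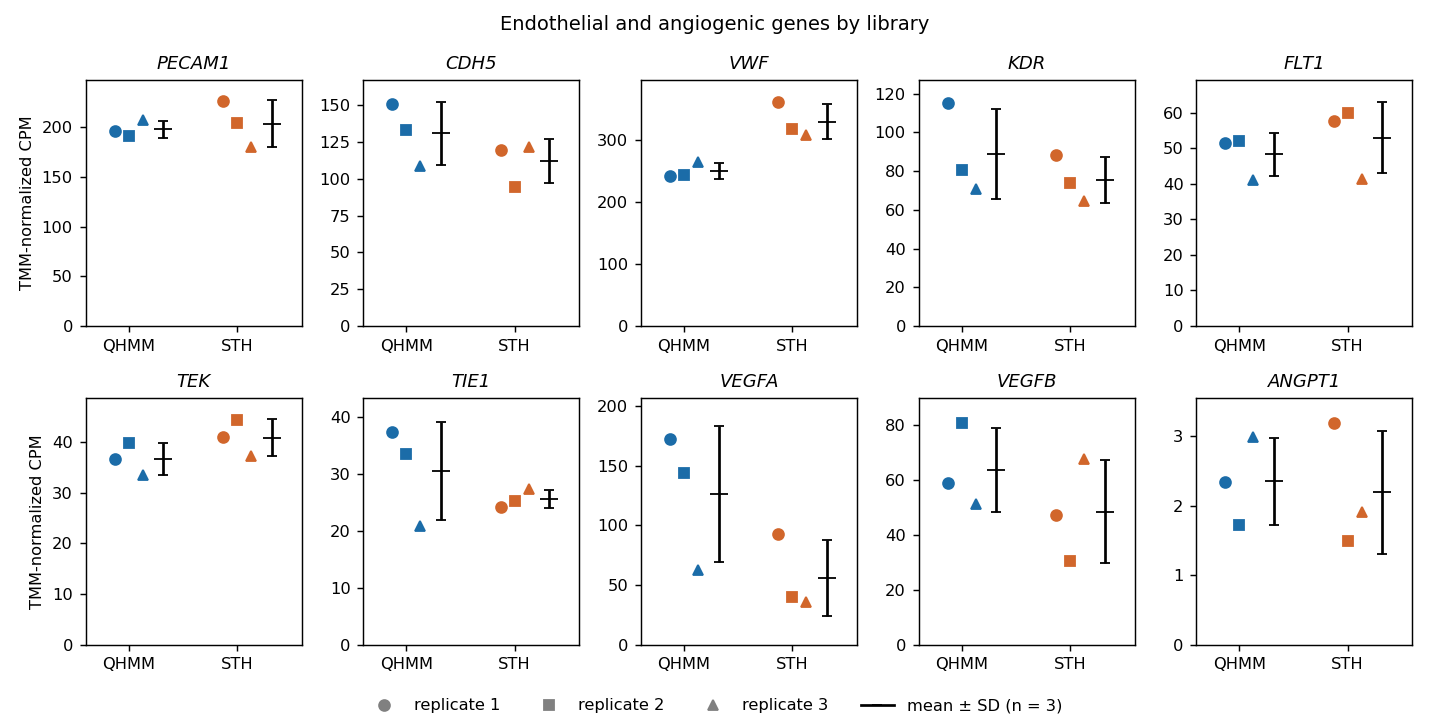
TMM-normalized CPM of each gene in every library (points, shaped by replicate number) with the mean ± SD of each breed (n = 3). The breeds overlap in each gene except VWF on this scale, and VEGFA has the widest spread, from 35.6 to 173 CPM.

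The VEGF receptors showed no difference between the breeds that passed the test. KDR had 115, 80.5 and 70.6 CPM in QHMM and 88.1, 73.8 and 64.6 CPM in STH. QHMM replicate 1 stood above the other 5 libraries, and without it the log2 fold change went from -0.23 (SE 0.25, FDR = 0.656) to -0.023. FLT1 had 51.6, 52.1 and 41.2 CPM in QHMM and 57.7, 59.9 and 41.5 CPM in STH. Replicate 3 was lowest in both breeds, and the log2 fold change was 0.13 (SE 0.22, FDR = 0.795). FLT1 also gives a soluble form that captures ligand, which counts per gene do not separate from the receptor of the membrane. The count of FLT1 was 0.448, 0.648 and 0.584 times that of KDR in QHMM replicates 1, 2 and 3 and 0.655, 0.812 and 0.642 times that of KDR in STH. On the log2 scale this ratio was -0.85 ± 0.27 in QHMM and -0.52 ± 0.19 in STH (SD, n = 3), and the difference of 0.34 gave p = 0.2 in a two-sided exact permutation test (0.45 adjusted over 3 ratios).

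The angiopoietin receptors TEK and TIE1 were without a call as well. TEK had 36.7, 39.7 and 33.5 CPM in QHMM and 41.0, 44.4 and 37.2 CPM in STH, a difference of 0.16 on the log2 scale (SE 0.20, FDR = 0.716). The coefficient of variation of TEK was 8.48% in QHMM and 8.92% in STH, beside a median over all tested genes of 20.7% and 23.9%. TIE1 had 37.3, 33.6 and 20.9 CPM in QHMM and 24.3, 25.2 and 27.5 CPM in STH. All STH libraries lay between QHMM replicates 2 and 3, and the log2 fold change was -0.26 (SE 0.25, FDR = 0.622). Thus QHMM varied more than STH in TIE1, with coefficients of variation of 28.2% and 6.43%.

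The ligand ANGPT1 had 2.35, 1.72 and 2.98 CPM in QHMM and 3.19, 1.49 and 1.91 CPM in STH, and its direction was not fixed. The log2 fold change of -0.09 (SE 0.41, FDR = 0.935) turned to 0.041 when libraries were scaled by their totals alone. ANGPT2, which can oppose ANGPT1 at the same receptor, had 6.42, 2.62 and 4.08 CPM in QHMM and 15.5, 2.81 and 4.59 CPM in STH. Only STH replicate 1 stood out, and without it the log2 fold change of ANGPT2 went from 0.81 (SE 0.57, FDR = 0.482) to -0.27. The log2 ratio of ANGPT1 to ANGPT2 counts was -0.84 ± 0.54 in QHMM and -1.49 ± 0.71 in STH (SD, n = 3), and the difference of -0.65 gave p = 0.3 in the exact permutation test (0.45 adjusted over 3 ratios).

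VEGFA was lower in STH by the largest margin of the 10 genes, but the difference did not pass the test. It had 173, 144 and 62.6 CPM in QHMM replicates 1, 2 and 3 and 92.7, 39.7 and 35.6 CPM in STH. STH replicate 1 lay above QHMM replicate 3, so the breeds overlapped in that pair of animals. The mean was 126 ± 57.1 CPM in QHMM (n = 3) and 56.0 ± 31.8 in STH (n = 3). In the edgeR fit over all genes the difference was -1.17 on the log2 scale (SE 0.43, unadjusted p = 0.0205, FDR = 0.168), and its 95% interval ran from -2.12 to -0.22. Within each breed the highest library had more than 2.6 times the VEGFA of the lowest. Its coefficient of variation was 45.2% in QHMM, higher than in 88.2% of tested genes, and 56.8% in STH, higher than in 92.4%.

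The call for VEGFA depended on the tool and on single animals. DESeq2 gave -1.19 on the log2 scale at an FDR of 0.0407, in a fit where it called 7.8% of all genes. Without STH replicate 1, edgeR gave -1.76 with an FDR of 0.0382, where 4.21% of all genes were called. With the replicate number as a block, which the labels do not tie to anything shared, the FDR was 0.0494 and 3.65% of all genes were called. When any other library was left out, the log2 fold change lay between -1.50 and -0.90 and the FDR between 0.105 and 0.400. The sign was negative in all 16 alternatives.

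**Figure D4:**
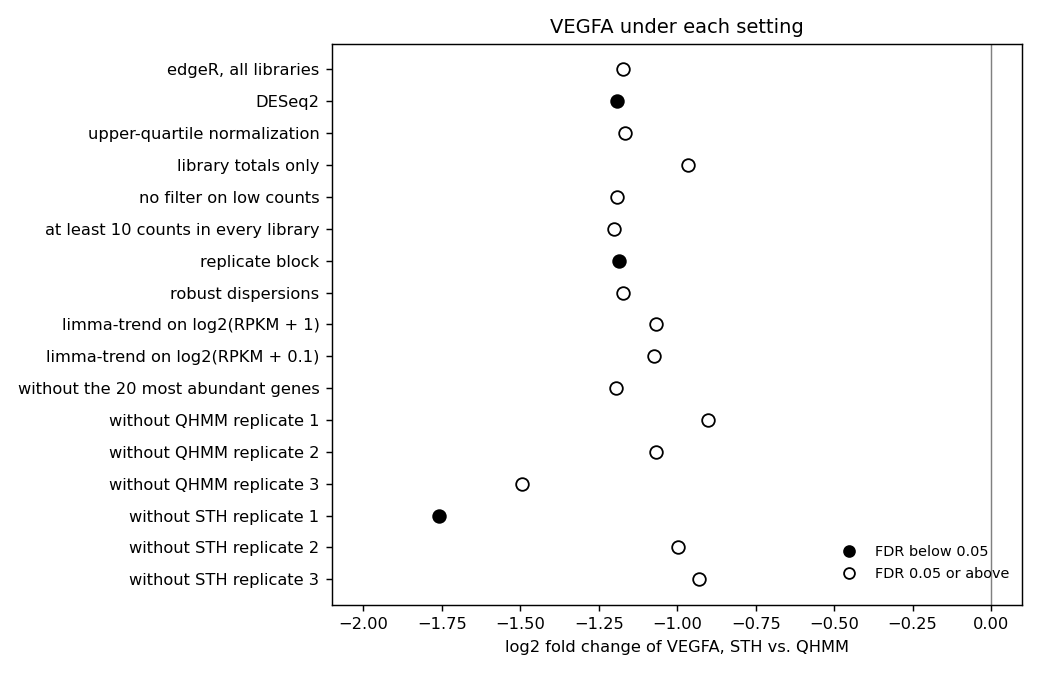
Log2 fold change of VEGFA (STH vs. QHMM) in the fit with all libraries and in 16 alternatives, with filled points where the FDR was below 0.05. The values run from -1.76 to -0.90, and 3 of the alternatives are filled.

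VEGFB, a ligand of FLT1 that has been linked to fatty acid uptake by the endothelium, had 59.1, 80.7 and 51.3 CPM in QHMM and 47.3, 30.6 and 67.8 CPM in STH. STH replicate 3 was second only to QHMM replicate 2, and the log2 fold change was -0.39 (SE 0.30, FDR = 0.523). VEGFA and VEGFB did not keep a fixed proportion. The count of VEGFA was 2.92, 1.78 and 1.22 times that of VEGFB in QHMM and 1.96, 1.30 and 0.525 times in STH. STH replicate 3 was the only library with fewer VEGFA than VEGFB reads. The log2 ratio was 0.89 ± 0.63 in QHMM and 0.14 ± 0.97 in STH (SD, n = 3), and the difference of -0.75 gave p = 0.5 in the exact permutation test (0.5 adjusted over 3 ratios).

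Adipocytes and connective tissue cells also lie between the fibres, and their markers differed between the same libraries. Of 8 adipocyte markers, 5 were called lower in STH and 0 higher, beside 1.83% of all tested genes called lower. ADIPOQ, the hormone adiponectin, fell from 154 ± 83.8 CPM in QHMM (n = 3) to 35.2 ± 4.6 in STH (n = 3), or by 2.13 on the log2 scale (SE 0.36, FDR = 0.0143), and PLIN1, CIDEC, GPAM and LEP were the other 4. With 1 library left out, 1 to 6 of the 8 markers were called, with the fewest (1, ADIPOQ) without STH replicate 2 and the most without QHMM replicate 2. Over all tested genes, these 2 fits called 183 and 208, beside 432 with all libraries. DESeq2 called 6 of the 8, robust dispersions 3, scaling by library totals 2, and limma-trend 2 of the 6 that it tested. In the same order, 975, 436, 250 and 346 of all tested genes were called (limma-trend on log2(RPKM + 1)). LIPE, the hormone-sensitive lipase, had a log2 fold change of 0.18 (FDR = 0.744) and PCK1 of -3.72 (FDR = 0.0619). The remaining marker, FABP4, was not called, and its absolute log2 fold change was no larger than that of LIPE. The summed level of the 8 markers was 138 to 462 CPM in QHMM and 77.1 to 107 in STH. Of 8 fibroblast markers edgeR called 0, DESeq2 3 and limma-trend 0, and 4 had an unadjusted p below 0.05. Over all tested genes, 19.2% had such a p and DESeq2 called 7.8%. The summed level of the 8 fibroblast markers was 2364 to 3963 CPM in QHMM and 884 to 1890 in STH. COL1A2 and COL1A1, which form type I collagen, had log2 fold changes of -1.38 (FDR = 0.0789) and -1.30 (FDR = 0.113). The part of these cells in the VEGFA difference was not tested.

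The wider set of endothelial genes gave the same count as the receptors. Of 29 listed genes 26 were found and 24 were tested, and edgeR called 0 of them, DESeq2 0 and limma-trend 0. Of the 24, 2 had an unadjusted p below 0.05, beside 19.2% of all tested genes. The median log2 fold change of the 24 was -0.04, and the values ran from -0.57 to 0.67, with 10 above 0 and 14 below. EMCN, a sialomucin of capillary and venous endothelium, had 12.6, 8.33 and 10.4 CPM in QHMM and 21.3, 15.3 and 13.3 CPM in STH, with 0.67 (SE 0.27, FDR = 0.203). CD34, a surface protein shared by endothelium and several progenitor cells, had 161, 143 and 149 CPM in QHMM and 131, 88.6 and 86.5 CPM in STH, with -0.57 (SE 0.23, FDR = 0.217). The breeds did not overlap in either gene on the TMM scale. This held for 4 of the 24 genes and for 24.7% of all tested genes. When libraries are scaled by their totals, the breeds overlapped in both EMCN and CD34. The log2 fold changes of the 2 genes lay in opposite directions. The row taken for CLDN5, a tight junction protein, had no read in any library.

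Of the 9 tested VEGF pathway ligands, receptors and coreceptors outside the 10 genes, edgeR called 0 (1 at an unadjusted p below 0.05, 1 by DESeq2 and 0 by limma-trend). Over all tested genes, 19.2% had such a p and DESeq2 called 7.8%. The log2 fold changes of the 9 had a median of -0.29, and 8 of the 9 lay below 0. PLXND1, a semaphorin receptor of endothelial cells, had 36.2, 51.6 and 45.8 CPM in QHMM and 31.4, 21.7 and 23.9 CPM in STH, with -0.79 (SE 0.23, FDR = 0.0913). The breeds did not overlap on the TMM scale, as in 24.7% of all tested genes, but they overlapped when libraries are scaled by their totals. DESeq2 called PLXND1 (FDR = 0.0450), the only call in 10 alternatives with all libraries. It was called in 0 of the 6 fits with 1 library left out. SEMA3C, a secreted semaphorin, had -0.69 (SE 0.36, FDR = 0.335). Of 17 genes that act downstream of the VEGF receptors, edgeR called 0 (4 at an unadjusted p below 0.05, 1 by DESeq2 and 1 by limma-trend). The heat shock protein HSPB1 had 1.51 (SE 0.39, FDR = 0.0641), and RCAN1, an inhibitor of calcineurin that VEGF induces, had 1.24 (SE 0.53, FDR = 0.238) with overlapping breeds.

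Beside ANGPT2, the angiopoietin group held ANGPTL4, a secreted inhibitor of lipoprotein lipase that responds to fasting and to hypoxia, and it was the only one of the 6 tested genes that was called, beside 1.62% of all tested genes called higher. ANGPTL4 had 6.70, 27.8 and 9.11 CPM in QHMM and 50.9, 44.9 and 94.6 CPM in STH. It rose from 14.5 ± 11.5 CPM (n = 3) to 63.5 ± 27.1 (n = 3), or by 2.13 on the log2 scale (SE 0.50, FDR = 0.0450). The call was lost without QHMM replicate 1 (FDR = 0.115), QHMM replicate 3 (FDR = 0.138), STH replicate 2 (FDR = 0.0585) or STH replicate 3 (FDR = 0.09996), and with robust dispersions (FDR = 0.105). ANGPTL1 had -0.96 (SE 0.38, FDR = 0.202).

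Hypoxia-inducible factors drive VEGFA in many tissues, and 3 of the 20 tested genes of that system were called, all of them higher in STH, beside 1.62% of all tested genes called higher. PFKFB3, a regulator of glycolysis, had 110, 29.8 and 81.6 CPM in QHMM and 310, 858 and 817 CPM in STH. It rose by 3.16 on the log2 scale (SE 0.52, FDR = 0.0133). Its relative PFKFB4 had 68.5, 170 and 112 CPM in QHMM and 494, 1429 and 639 CPM in STH, and rose by 2.87 (SE 0.46, FDR = 0.0128). Both were called with any 1 library left out. BNIP3, a mitochondrial protein that promotes mitophagy, had 163, 188 and 129 CPM in QHMM and 295, 512 and 496 CPM in STH, and rose by 1.44 (SE 0.28, FDR = 0.0248). Its FDR was 0.0515 to 0.0954 when 1 library other than STH replicate 1 was left out.

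The breeds did not overlap in 8 of the 20 genes, these 3 among them, and in 24.7% of all tested genes. VEGFA was lower on average in STH, and a link between these genes and VEGFA was not tested. The median log2 fold change of the 20 genes was 0.19, with 13 above 0 and 7 below. Among those that edgeR did not call, NDRG1 had 0.93 (SE 0.26, FDR = 0.0836), and HIF1AN, the asparagine hydroxylase that restrains the factors, had -0.86 (SE 0.28, FDR = 0.121). DESeq2 called both (FDR = 0.0350 and 0.0414). It called 5 of the 20 genes, beside 7.8% of all genes, and limma-trend called 3 of the 18 that it tested. Among 10 regulators that act on VEGFA in muscle, edgeR called 0, DESeq2 1 and limma-trend 0. Of the 10, 2 had an unadjusted p below 0.05, beside 19.2% of all tested genes. The coactivator PPARGC1B had 28.4, 24.7 and 19.6 CPM in QHMM and 13.5, 3.14 and 9.10 CPM in STH, with -1.49 on the log2 scale (SE 0.42, FDR = 0.0814). Its relative PPARGC1A had -0.85 (SE 0.48, FDR = 0.367), and its breeds overlapped.

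**Figure D5:**
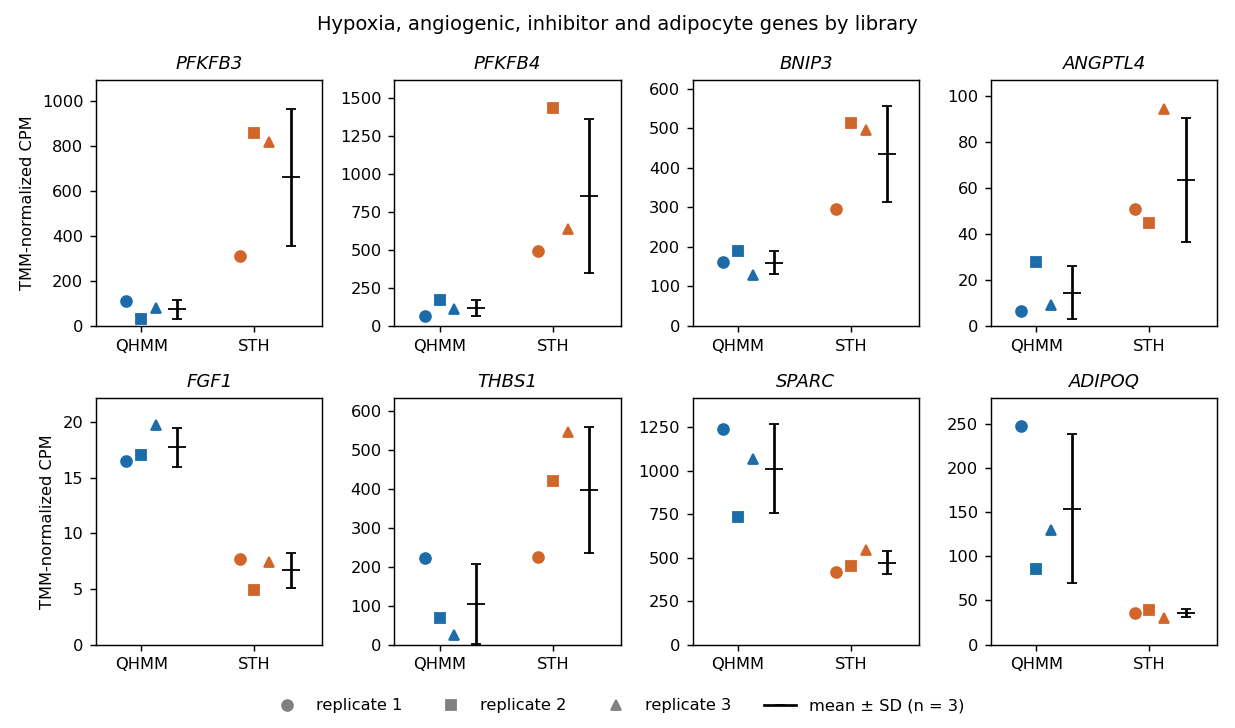
TMM-normalized CPM in every library (points, shaped by replicate number) and the mean ± SD of each breed (n = 3) for 8 genes chosen after their values were seen. By edgeR with all libraries, PFKFB3, PFKFB4, BNIP3 and ANGPTL4 were called higher in STH, FGF1 and ADIPOQ lower, and THBS1 and SPARC were not called.

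Of 15 other tested angiogenic growth factors and guidance genes, 1 was called, lower in STH, beside 1.83% of all tested genes called lower. FGF1, an acidic fibroblast growth factor, had 16.5, 17.0 and 19.8 CPM in QHMM and 7.72, 4.87 and 7.45 CPM in STH. It fell from 17.8 ± 1.77 CPM (n = 3) to 6.68 ± 1.57 (n = 3), or by 1.41 on the log2 scale (SE 0.26, FDR = 0.0193), and lost its call without QHMM replicate 1 (FDR = 0.0516) or QHMM replicate 3 (FDR = 0.0699). Scaling by library totals (FDR = 0.0645) and limma-trend with a pseudocount of 1 (FDR = 0.0617) or 0.1 (FDR = 0.0640) also ended the call. CXCL12, a chemokine, had -0.57 (SE 0.29, FDR = 0.312), and UNC5B, a netrin receptor, had -0.61 (SE 0.44, FDR = 0.504).

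Of 11 tested angiogenesis inhibitors, edgeR called 0, DESeq2 2 and limma-trend 0. Of the 11, 3 had an unadjusted p below 0.05, beside 19.2% of all tested genes. Thrombospondin 1, encoded by THBS1, had 222, 69.1 and 24.6 CPM in QHMM and 225, 421 and 545 CPM in STH. QHMM replicate 1 and STH replicate 1 were nearly equal, and the difference was 1.92 on the log2 scale (SE 0.64, FDR = 0.133). SPARC, a matrix protein that binds growth factors, had 1238, 734 and 1068 CPM in QHMM and 417, 450 and 546 CPM in STH, with -1.10 (SE 0.27, FDR = 0.0529). DESeq2 called SPARC (FDR = 0.0012) but not THBS1 (FDR = 0.196), in a fit where it called 7.8% of all genes. Of 10 alternatives with all libraries, 5 called SPARC and 1 called THBS1.

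Vessel tone and vessel wall genes were also without a call. Of the 13 tested genes of tone and flow response, 0 were called by edgeR, DESeq2 or limma-trend, and 0 had an unadjusted p below 0.05. KLF2 and KLF4, transcription factors induced by flow, were lowest in QHMM replicate 3, which had 3.30 CPM of KLF2 and 5.02 CPM of KLF4. The other 5 libraries had 23.3 to 37.7 CPM of KLF2 and 31.3 to 63.8 CPM of KLF4. The log2 fold changes were 0.67 (SE 0.56, FDR = 0.570) and 0.77 (SE 0.60, FDR = 0.530). Of 13 pericyte and smooth muscle genes, edgeR called 0 (2 at an unadjusted p below 0.05, 1 by DESeq2 and 0 by limma-trend). Over all tested genes, 19.2% had such a p and DESeq2 called 7.8%. MCAM, an adhesion molecule of the vessel wall, had -0.84 (SE 0.24, FDR = 0.0823), and the pericyte receptor NOTCH3 had -0.64 (SE 0.23, FDR = 0.165). In both genes the breeds did not overlap, which held for 2 of the 13 genes and for 24.7% of all tested genes. When libraries are scaled by their totals, the breeds overlapped in NOTCH3.

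Among lymphatic markers, single libraries stood apart. Of 6 tested, edgeR called 0, DESeq2 0 and limma-trend 0, and 1 had an unadjusted p below 0.05, beside 19.2% of all tested genes. PDPN had 26.7 CPM in STH replicate 3 and 0.543 to 4.004 CPM in the other 5 libraries, and PROX1 had 20.02 CPM in QHMM replicate 1 and 1.99 to 8.48 CPM in the others. Their log2 fold changes were 2.43 (SE 0.88, FDR = 0.164) and -1.02 (SE 0.56, FDR = 0.356). Red cell genes were near the detection limit. The 5 rows found summed to 1.45 to 4.49 CPM in QHMM and 1.99 to 5.04 CPM in STH, and SLC4A1 and HBM had no read. The 1 tested red cell row, HBA1, had a log2 fold change of -0.11 (FDR = 0.922), and the 1 tested platelet gene, ITGA2B, had 0.08 (FDR = 0.919).

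Capillaries run along the fibres, and markers of the fibres were read in the same libraries. Of 9 tested myofibre genes 2 were called, both lower in STH, beside 1.83% of all tested genes called lower. The slow fibre genes TNNT1 and MYH7 fell by 1.37 (SE 0.27, FDR = 0.0240) and 1.34 (SE 0.26, FDR = 0.0251) on the log2 scale, and each kept its call in 2 of the 6 fits with 1 library left out. Myoglobin, encoded by MB, had -1.47 (SE 0.39, FDR = 0.0683), and the fast oxidative myosin MYH2 had -0.82 (SE 0.32, FDR = 0.200). Of 4 tested satellite cell genes 1 was called, CDH15, which rose by 1.12 (SE 0.26, FDR = 0.0448) beside 1.62% of all tested genes called higher. Of the 6 fits with 1 library left out, CDH15 was called in 1, without STH replicate 1, and its call also ended with the replicate block (FDR = 0.0531) and with limma-trend at a pseudocount of 1 (FDR = 0.0506). CHRDL2 had -1.79 (FDR = 0.168) and the stem cell factor PAX7 -1.43 (FDR = 0.294). Of 7 Schwann cell and nerve genes edgeR, DESeq2 and limma-trend called 0. An unadjusted p below 0.05 was found in 0 of the 7, beside 19.2% of all tested genes. S100B and PMP22 had -0.59 (FDR = 0.529) and -0.39 (FDR = 0.647). Whether fibre type had a part in the VEGFA difference was not tested.

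The 7 genes PECAM1, CDH5, VWF, KDR, FLT1, TEK and TIE1 together amounted to 829, 773 and 747 CPM in QHMM and 920, 820 and 782 CPM in STH. The sums of the breeds overlapped, and replicate 3 was the lowest of each breed. VWF and PECAM1 contribute the most reads to this sum. Over the 6 libraries, the tested genes most like the mean standardized level of these 7 genes were NFYA, KIAA1919, LOC101106666, THNSL1 and LOC101102745, with Pearson's r between 0.969 and 0.986. These are the extremes of 12506 genes over only 6 points, and all but NFYA reached at most 4.59 CPM. The median r was 0.0126 over all tested genes and 0.446 over the 24 endothelial genes outside the 10, which share the libraries and their scaling with the 7. Within these 24 genes r ran from -0.893 to 0.807. The median was not highest there, with 0.543 over vessel tone and flow genes, 0.481 over lymphatic and 0.471 over pericyte and smooth muscle genes. It was -0.171 over myofibre genes. Among the 7 genes themselves, 14 of 21 pairs had a positive r, with a median of 0.233.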

How the data were processed

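Muscle of 3 QHMM and 3 STH animals was measured by RNA-seq, with 1 library each. The authors filtered the Ion Proton reads, mapped them to Oar 3.1 and deposited raw counts of uniquely mapped reads per gene. The deposited RPKM divide these counts by a gene length and the total count of the library. Aligner, counting program and annotation release are not given in the sources used here. The tables hold no chromosome positions. All 6 columns of each table were used, and 25 RPKM rows whose symbols had turned into dates were left out. The totals of 10982191 to 14334544 reads per library limit precision for low genes such as ANGPT1.

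Counts were tested in R 4.3.3 with edgeR 4.0.16 (TMM, filterByExpr, quasi-likelihood F test, breed as the only term), and FDR was adjusted by Benjamini-Hochberg over 12506 genes. The SE comes from the log2 fold change and its F statistic. A gene was called at an FDR below 0.05 and more than 1.5-fold, the thresholds of the study, whose EBSeq program was not installed. Alternatives used DESeq2 1.42.0, limma 3.58.1 (limma-trend on log2(RPKM + 1) and log2(RPKM + 0.1), for RPKM of at least 1 in 3 libraries, a scale on which changes of low genes are understated), other scaling and filters, a replicate block, and leaving out each library. Methods were tested on simulated data. Symbols that the tables lack were matched through their similarity symbols or RefSeq gene IDs (assembly ARS-UI_Ramb_v3.0), and 211 of 224 listed genes were found. Figures were drawn with matplotlib 3.10.9.

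The members and the 19 gene lists were chosen with earlier results of these data known. Named are the 10 members, each list's called genes and the 2 largest changes among its other tested genes, and the 5 genes most like the endothelial mean.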

Additional observations from a re-analysis of the deposited data

How the results depend on the processing

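Of 158 values of the 10 genes under alternatives, 150 kept both sign and side of the threshold. The number of the 10 genes called went from 0 to 1, VEGFA, with DESeq2 and with the replicate block, and was 0 to 1 with 1 library left out. All tested genes called went from 432 to 975 with DESeq2, to 250 with library totals only and to 806 with no filter on low counts, and was 131 to 535 with 1 library left out (131 without QHMM replicate 1, 150 without QHMM replicate 3, 183 without STH replicate 2 and 208 without QHMM replicate 2). Listed genes called went from 13 to 27 with DESeq2, to 25 with no filter and to 20 with the replicate block, and was 4 to 13 with 1 library left out (5 without QHMM replicate 1, 4 without QHMM replicate 3 or STH replicate 2). Library totals moved the median log2 fold change of all genes by 0.12, to 0.14. ANGPT1 turned to 0.041 there, and HBA1, the alpha-globin row, to 0.021, and to 0.054 and 0.076 with limma-trend at the pseudocounts 1 and 0.1. With 1 library left out, PECAM1 ran from -0.059 to 0.12, ANGPT1 from -0.49 to 0.12, ANGPT2 from -0.27 to 1.18, HBA1 from -0.42 to 0.11 and the platelet gene ITGA2B from -0.14 to 0.20. The cause was not tested. The 3 ratios kept their signs in all their alternatives. Like-numbered libraries of the breeds had correlations of deviations of 0.226, -0.038 and -0.13, and QHMM replicate 2 correlated best with STH replicate 3, so the numbers were not taken as pairs. With the replicate block 457 genes were called (3.65%), and VEGFA had an FDR of 0.0494. Depth limits ANGPT1, at 18 to 50 reads per library.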
